A study of Caenorhabditis elegans with 2 samples.

Results

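Body wall muscle of Caenorhabditis elegans is described here through 46 protein-coding genes, of 19973 in all, and through the regions near them that were listed for the protein SUP-37. The 46 were chosen by name, with earlier results of these data known, as components of the contractile machinery and its control. They are 6 thick filament genes, 16 thin filament genes, 4 giant or chaperone proteins, 14 attachment proteins, 4 genes of excitation, calcium handling and dystrophin, and 2 transcription factors. SUP-37, which genetics links to pha-1 and the development of the pharynx, was located on DNA by ChIP-seq, the sequencing of DNA that is precipitated with a protein, in whole L1 larvae, the stage at hatching, of mixed sex, 6 hours old and starved after bleaching. All worms were of strain OP611, which carries the mutation unc-119(tm4063) and the integrated transgene wgIs611. The transgene holds sup-37 joined to the tags TY1, EGFP and 3xFLAG, beside a working unc-119(+), and both replicates carried all of these. There was 1 group of 2 biological replicates and no untagged strain was analysed here. The sample description names an antibody against GFP, while the antibody label reads sup-37. Because whole larvae were used, a region near a muscle gene does not show that SUP-37 was there in muscle cells.

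Body wall muscle cells lie beneath the epidermis and hold obliquely striated sarcomeres, in which thick filaments of myosin slide along thin filaments of actin. Dense bodies anchor the thin filaments and M-lines the thick ones, and integrin complexes at both tie the contractile apparatus through the basement membrane to the cuticle. Calcium that enters the cell, or leaves its internal store, binds troponin on the thin filament and permits contraction. The cells are already contractile in the newly hatched larva.

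The authors' regions came in 4 lists: 30000 for each replicate, 30000 for the pool of both, and 924 that passed their irreproducible discovery rate (IDR) filter, a method built on how replicates rank regions. The pooled list was deposited as peaks and background serving as input for that filter, so its weaker regions include background. Regions were ranked within a list by the deposited signal, the authors' own value of strength, whose scale is not stated. Rank 1 is the strongest region, and the IDR peaks are also the 924 strongest pooled regions. Depth per library is unknown, since the lists hold no read counts. A promoter window ran from 2000 bp upstream to 500 bp downstream of the annotated 5′ end of a gene, and a gene was counted when the summit of a region fell in it. Neither genes nor regions are replicates, so counts over the 46 genes stand beside the same counts over all protein-coding genes, with no test.

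IDR peaks were found in the promoter windows of 7 of the 46 body wall muscle genes (15.2%), against 901 of 19973 protein-coding genes (4.51%), a share 3.37 times as large. The 7 were mlc-1, a myosin light chain, act-4, an actin, mup-2, a troponin T, cpn-3, a calponin, clik-1, a calponin-like protein, unc-22, the giant kinase twitchin, and sca-1, the calcium pump of the sarcoplasmic reticulum. Each window held 1 IDR peak. With a summit credited only to the gene with the nearest 5′ end, 6 of 46 genes (13.0%) and 565 of all genes (2.83%) were counted, and unc-22 dropped out. The act-4 gene also had an IDR peak in an intron beyond the window, as 1 of 46 genes (2.17%), against 152 of all genes (0.761%). Window and intron together therefore gave the same 7 genes (15.2%), against 1033 (5.17%). The 8 IDR peaks at muscle genes had ranks from 338 to 895 with a median of 578, against a median of 462 over all 924. A narrower window, from 500 bp upstream to 100 bp downstream, held an IDR peak at 4 of the 46 genes (8.70%), against 2.67% of all genes, and the stronger 462 of the IDR peaks counted 2 (4.35%), act-4 and cpn-3, against 2.55%. Windows in which over 10% of the 32-base words occur elsewhere in the genome were rarer among the muscle genes, 2 of 46 (4.35%), than among all genes, 3422 (17.1%). The part of such repeats in the difference was not tested.

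**Figure D1:**
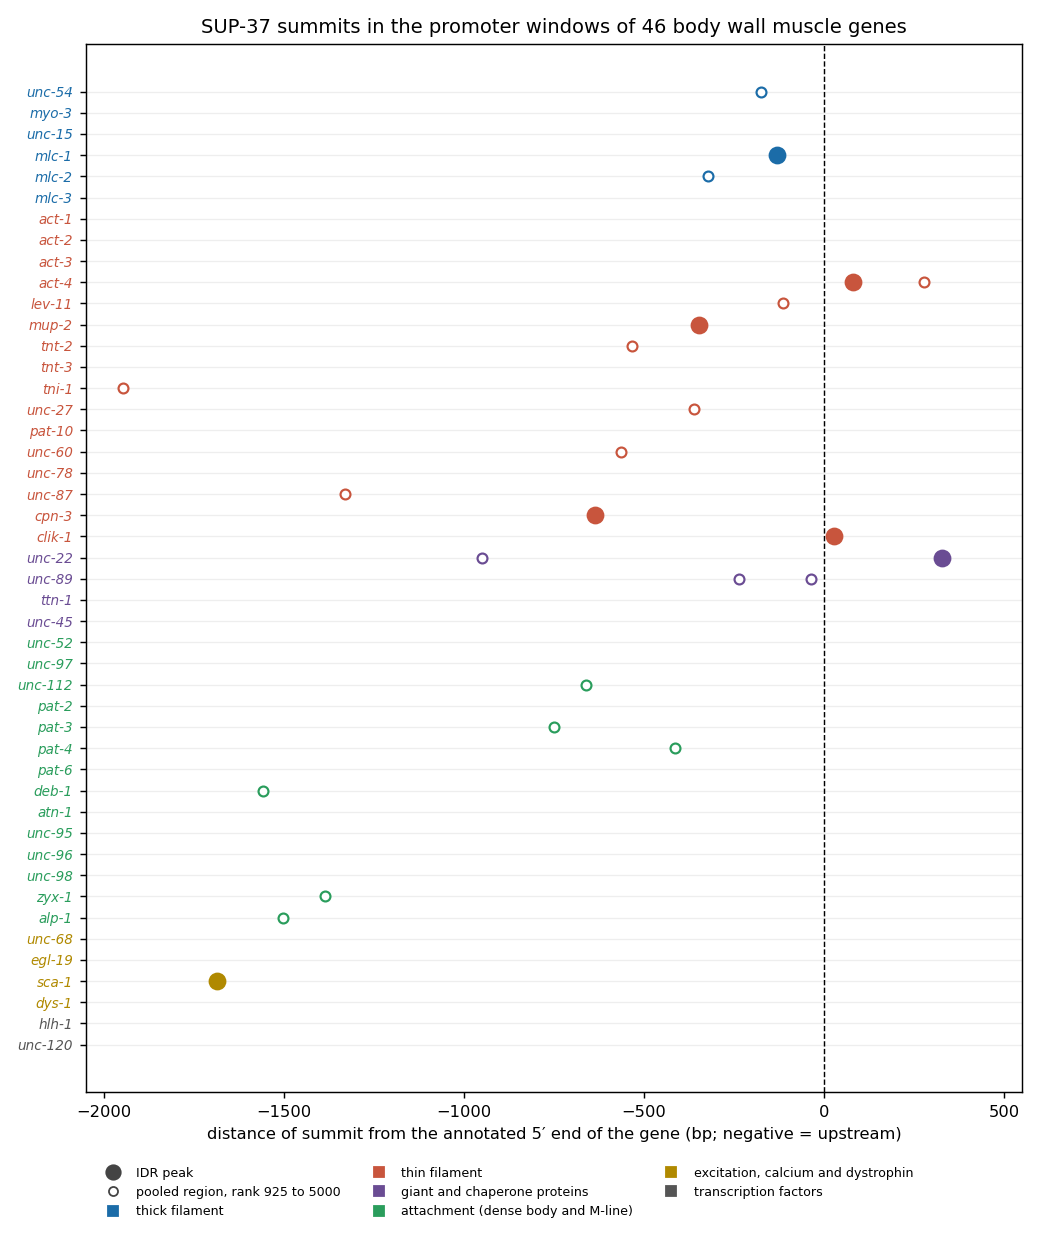
Each row is 1 of the 46 genes, coloured by role, and each circle is the summit of a pooled region of rank 5000 or better, placed by its distance in bp from the annotated 5′ end. Filled circles mark the 7 IDR peaks in windows, of which 4 lie upstream and 3 downstream of the 5′ end.

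The sequences below run 50 bases to either side of the summit, 5′ to 3′ on the strand of the gene, from the RefSeq WBcel235 assembly (ce11). They are shown so that the letters under these summits can be set beside the common ones of the whole IDR list. Capitals mark matches, on either strand, to the 10 6-base words that were most frequent under all IDR summits relative to flanks 400 bp away. These were, with the share of all IDR summit windows that hold each, GCGCGC (10.6%), GCACGC (8.01%), CGCGCG (6.82%), GACGCA (19.3%), ACGCGC (13.9%), CGCGCC (12%), GCGCCA (14.3%), GCGCAC (14%), GGCGCA (12.6%) and CGCGCA (13%), some of which overlap. The sequence around the cpn-3 summit is not printed.
mlc-1, chrX:17459028-17459128, plus strand: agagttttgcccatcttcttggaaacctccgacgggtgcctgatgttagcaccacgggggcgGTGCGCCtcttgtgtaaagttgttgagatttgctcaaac
act-4, first peak, chrX:4960650-4960750, plus strand: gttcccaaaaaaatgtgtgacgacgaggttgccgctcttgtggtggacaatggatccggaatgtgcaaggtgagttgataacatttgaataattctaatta
act-4, intron peak, chrX:4962378-4962478, plus strand: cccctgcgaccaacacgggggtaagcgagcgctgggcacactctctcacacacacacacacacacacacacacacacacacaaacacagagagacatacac
mup-2, chrX:6410524-6410624, minus strand: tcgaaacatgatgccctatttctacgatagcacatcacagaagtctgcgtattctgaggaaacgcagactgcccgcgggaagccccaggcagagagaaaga
clik-1, chrV:6768655-6768755, minus strand: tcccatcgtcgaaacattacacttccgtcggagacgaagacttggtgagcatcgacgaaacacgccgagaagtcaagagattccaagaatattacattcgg
unc-22, chrIV:12010630-12010730, minus strand: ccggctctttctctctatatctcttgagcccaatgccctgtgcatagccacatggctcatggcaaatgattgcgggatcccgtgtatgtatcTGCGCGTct
sca-1, chrIII:10818484-10818584, minus strand: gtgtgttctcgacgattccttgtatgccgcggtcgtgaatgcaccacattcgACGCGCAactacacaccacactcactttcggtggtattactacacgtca

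At least 1 of the 10 words lay within 50 bp of 4 of the 8 summits at muscle genes, those of mlc-1, cpn-3, unc-22 and sca-1, against 484 of all 924 summits (52.4%). The words were picked for their frequency in this same list, so that share is a property of the choice. GCGCGC, the word with the highest ratio, was in 0.812% of flanking windows. Both act-4 summits, mup-2 and clik-1 held none of the 10. The act-4 intron window instead holds an alternating CA repeat of 36 bases, and 11 of the 924 windows (1.19%) held such a repeat of 20 or more bases. Of its 32-base words, 13.9% occur elsewhere in the genome, against 0.99% or fewer in the other 7 windows.

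Motifs of muscle factors and, beside them, the GATA motif GATAAG and the TATA box TATAAA were looked up by exact letters on both strands. The E-box CANNTG, the general motif of factors such as the MyoD homolog HLH-1, was within 50 bp of 2 of the 8 summits, the first act-4 peak and unc-22, against 363 of 924 (39.3%). Its form CAGCTG was under none of the 8 and 43 of 924 (4.65%), and its form CACGTG under none of the 8 and 55 of 924 (5.95%). The CArG box, the motif of serum response factor, to which UNC-120 is related, was under none of the 8 and 1 of 924 (0.108%). GATAAG was under none of the 8 and 17 of 924 (1.84%), and TATAAA under none of the 8 and 44 of 924 (4.76%). The windows of the 8 summits held 41.6% to 56.4% G and C, against a median of 49.5% over all IDR summits, with quartiles of 43.6% and 53.5%.

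A wider look at the 5000 strongest pooled regions found 1 or more in the windows of 22 of the 46 genes (47.8%), against 2971 of all genes (14.9%), a share 3.22 times as large. At members without an IDR peak, the −log10 q of these regions ran only from 0.334 (zyx-1) to 0.913 (tnt-2). The lowest value in the IDR list was 1.43. Such a region is therefore not by itself evidence of a SUP-37 site. Counting only regions that also lay within 200 bp of a summit among the 5000 strongest of both replicates left 9 of 46 (19.6%), against 1252 (6.27%). These 9 were mlc-1, act-4, lev-11, mup-2, unc-27, cpn-3, clik-1, unc-22 and unc-89. At unc-89 each replicate summit lay within 200 bp of a pooled summit, but the replicate summits were further than that from each other. As a share of the genes with a pooled region of that strength, 9 of 22 (40.9%) stood beside 1252 of 2971 (42.1%), so the replicates repeated such regions at close shares in both sets. A pooled region of any rank was in the windows of 42 of 46 genes (91.3%), against 56.5% of all genes. That list reaches down to a −log10 q of 0.22 and includes background, so these shares are not shares of genes bound by SUP-37. The median best rank was 5365 over the 46 genes and 25049 over all genes, with genes without a region placed last.

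**Figure D2:**
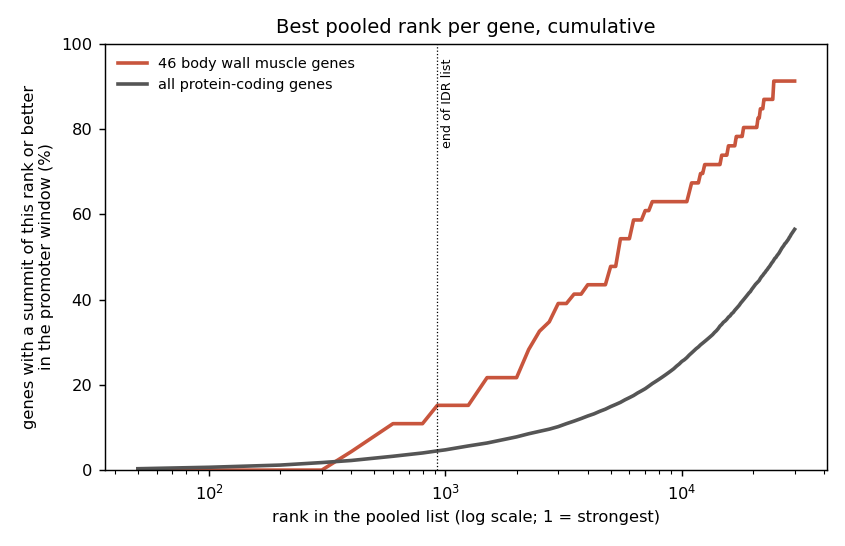
The curves give the percentage of the 46 body wall muscle genes (red) and of all protein-coding genes (grey) with a summit of a given rank or better in the promoter window, against rank in the pooled list on a log scale. The muscle curve starts at rank 338, reaches 15.2% at the end of the IDR list and 47.8% at rank 5000, where all genes reach 4.51% and 14.9%.

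Among the 6 thick filament genes, 1 had an IDR peak and 3 had a region of rank 5000 or better, against 4.51% and 14.9% of all genes. The role groups are small, and differences between them were not tested. The peak of mlc-1, which encodes a regulatory myosin light chain, lay at chrX:17458886-17459269 with its summit 132 bp upstream of the 5′ end. Its signal was 148 in the pooled list (rank 565, −log10 q 2.35), 87.9 in replicate 1 (rank 541) and 49.7 in replicate 2 (rank 1159). Both replicates thus listed it, replicate 2 somewhat below the 924 strongest. The neighbouring mlc-2, which encodes a near-identical light chain and is read the other way, had a region 322 bp upstream, at rank 2174 in the pool, 2387 in replicate 1 and 9621 in replicate 2. The noncoding gene C36E6.11 lies within 200 bp of that summit. For unc-54, the major myosin heavy chain of body wall muscle, the region 176 bp upstream had rank 2253 in the pool, 8634 in replicate 1 and 1640 in replicate 2. The ranks of these light and heavy chain regions differed between replicates in opposite directions, mlc-2 being stronger in replicate 1 and unc-54 in replicate 2. The other 3 genes had weaker window regions: myo-3, the second heavy chain, at rank 6207, unc-15, paramyosin of the filament core, at 10831, and mlc-3, the essential light chain, at 22004.

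Thin filament genes, 16 of the 46, held 4 of the 7 IDR windows and 10 of the 22 wider ones. Over all genes, 4.51% had an IDR peak in the window and 14.9% a region of rank 5000 or better. At act-4 the first peak, at chrX:4960508-4960891, had the highest rank among the 46 genes. Its signal was 192 in the pool (rank 338, −log10 q 3.01), 102 in replicate 2 (rank 279), and it had rank 315 in replicate 1. Both replicates had a region among their 924 strongest within 200 bp of the pooled summit, but not at the same base. The pooled summit fell 79 bp downstream of the 5′ end in the first coding exon. That of replicate 1 fell 82 bp upstream, and that of replicate 2 fell 119 bp downstream, inside the first intron. The replicate summits were thus matched through the pooled one and lay over 200 bp from each other. Replicate 1 also had a region 129 bp downstream, close to the replicate 2 summit in the first intron, but at rank 1240. The second IDR peak of act-4, at chrX:4962236-4962619, lay in the same intron, which is 2081 bp long, 1807 bp from the 5′ end. Its signal was 139 in the pool (rank 639), 76.3 in replicate 1 (rank 743) and 67.8 in replicate 2 (rank 579), so both replicates listed this one among their strongest as well. Beside each of the 2 peaks stood a weaker pooled region, at rank 2534 with its summit 278 bp from the 5′ end and at rank 1804 with its summit 2018 bp from it.

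**Figure D3:**
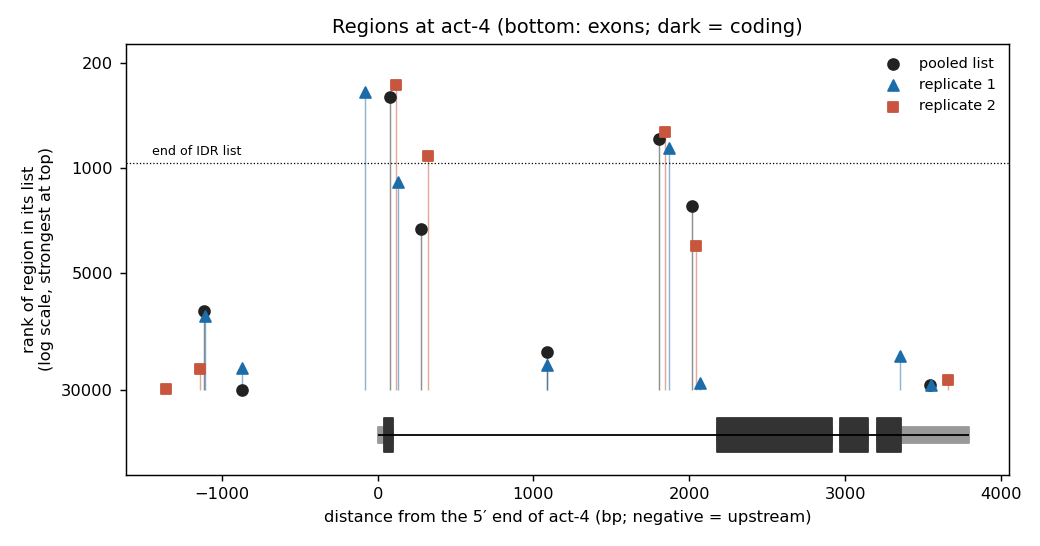
Regions at act-4 are drawn by distance of the summit from the 5′ end in bp and by rank in their own list (log scale, strongest at the top), with the exons beneath. Replicate 1, replicate 2 and the pool each have a strong region near the first exon (ranks 315, 279 and 338), with differing summits. Each also has one in the distal part of the first intron (ranks 743, 579 and 639).

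The first act-4 summit lies in a stretch of coding sequence that the 4 actin genes of the set share closely. The 57 coding bases of the first exon are set beside the same stretch of act-1, act-2 and act-3, from the RefSeq WBcel235 assembly on the strand of each gene. Capitals mark bases that differ from act-4.
act-4, chrX:4960662-4960718, plus strand: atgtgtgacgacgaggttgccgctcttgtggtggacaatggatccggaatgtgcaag
act-1, chrV:11081073-11081129, plus strand: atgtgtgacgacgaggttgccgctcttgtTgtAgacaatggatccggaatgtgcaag
act-2, chrV:11078071-11078127, minus strand: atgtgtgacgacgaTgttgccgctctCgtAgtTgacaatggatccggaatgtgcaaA
act-3, chrV:11073187-11073243, minus strand: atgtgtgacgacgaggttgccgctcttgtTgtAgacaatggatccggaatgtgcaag

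The stretches of act-1 and act-3 differ from act-4 at 2 bases each (96.5% identity), and that of act-2 at 5 bases (91.2%). The longest run shared without a difference is 29 bases for act-1 and act-3 and 23 bases for act-2. No pooled region had its summit within 200 bp of the stretch in any of these 3 genes, which stand together on chromosome V. The act-3 stretch lies downstream of the promoter window of that gene. The best window regions of act-1, act-2 and act-3 lay far upstream. One at rank 5365 was shared by act-1, at −1529 bp from its 5′ end, and act-2, at −1369 bp from its own, and act-3 had one at rank 6066, at −1681 bp. Within act-1, 85.8% of the 32-base words occur elsewhere in the genome, against 37.4% in act-2, 41.5% in act-3 and 6.70% in act-4. In the promoter windows the share was lower, 19.3% at act-1, 3.32% at act-2, 0.0% at act-3 and 0.04% at act-4. How the authors treated reads with several places to map is not given in the sources used here, and the part of such copies in the absence of regions at the other actins was not tested.

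Calponin and calponin-like genes held 2 further IDR peaks, where the share over all genes was 4.51%. The peak of cpn-3, at chrI:3987113-3987496, had a signal of 186 in the pool (rank 368, −log10 q 3.01), 96.7 in replicate 1 (rank 430) and 86.2 in replicate 2 (rank 360). Its summit lay 635 bp upstream, and the replicate summits were 0 and 9 bp away from it. It was the only one of the 7 window peaks that both replicates placed among their 924 strongest with summits within 50 bp. The peak of clik-1, at chrV:6768513-6768896, had a signal of 155 in the pool (rank 506, −log10 q 3.01), 64.4 in replicate 1 (rank 1266) and 87.1 in replicate 2 (rank 354). Its summit lay 27 bp inside the gene, in the 5′ UTR, and also in the window of the neighbouring T25F10.1. The related unc-87, whose product binds and stabilises actin filaments, had a region 1330 bp upstream at rank 3944 in the pool, 19261 in replicate 1 and 2103 in replicate 2. Replicate 1 ranked this region much weaker than replicate 2 did, but its −log10 q was also low elsewhere, 0.375 in the pool and 0.987 in replicate 2.

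Troponin and tropomyosin genes make filaments answer to calcium, and here they are mup-2, tnt-2, tnt-3, unc-27, tni-1, pat-10 and lev-11. In their windows lay 1 IDR peak and, at other genes of these, 4 weaker regions of rank 5000 or better. Shares over all genes were 4.51% for an IDR peak and 14.9% for a region of rank 5000 or better. The peak of mup-2, at chrX:6410382-6410765, lay 347 bp upstream of this troponin T gene, with a signal of 121 in the pool (rank 850, −log10 q 1.62), 74.1 in replicate 1 (rank 809) and 64.3 in replicate 2 (rank 643). Both replicates had it among their 924 strongest, and the noncoding gene T22E5.10 lies within 200 bp of the summit. A second troponin T gene, tnt-2, had a region 533 bp upstream at rank 1290 in the pool, 9992 in replicate 1 and 2203 in replicate 2. The region of the troponin I gene unc-27, 361 bp upstream, had rank 1453 in the pool, 2548 in replicate 1 and 3147 in replicate 2. Both libraries listed it among their 5000 strongest. The other troponin I gene among the 46, tni-1, had a region 1947 bp upstream, near the edge of the window. It had rank 2995 in the pool, 1466 in replicate 1 and 16443 in replicate 2. For lev-11, tropomyosin, the region 115 bp upstream was alike in the lists, at rank 3465 in the pool, 3828 in replicate 1 and 3595 in replicate 2. The third troponin T gene among the 46, tnt-3, reached rank 7357 and the troponin C gene pat-10 rank 24356, so these troponin subunits were spread over much of the list.

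Genes of actin filament turnover had a region of rank 5000 or better at 1 of 2, against 14.9% of all genes, too few genes to describe a group. At unc-60, which encodes ADF/cofilin, a region 564 bp upstream had rank 2179 in the pool, 14327 in replicate 1 and 849 in replicate 2. That summit is equally far from the 5′ end of F53E2.2. At unc-78, whose product AIP1 works with ADF/cofilin, the best region had rank 5376 in the pool, at −194 bp from the 5′ end.

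Of the 4 giant and chaperone proteins, unc-22 had an IDR peak and unc-89 a weaker pair of regions of rank 5000 or better. The shares over all genes were 4.51% and 14.9%. The unc-22 peak, at chrIV:12010488-12010871, had a signal of 144 in the pool (rank 591, −log10 q 2.23), 94.8 in replicate 1 (rank 449) and 46.6 in replicate 2 (rank 1359). Its summit lay 327 bp inside the gene, in an intron, within 200 bp of the noncoding genes ZK617.11 and ZK617.23. The nearest protein-coding 5′ end was that of ZK617.26, 279 bp away, so position alone does not tie the peak to unc-22. A second region of unc-22, 949 bp upstream, had rank 2337 in the pool, 1539 in replicate 1 and 15960 in replicate 2. At unc-89, the obscurin homolog of the M-line, the region 237 bp upstream had rank 1305 in the pool and 1293 in replicate 2, while replicate 1 listed none within 200 bp. The next region, 37 bp upstream, had rank 2916 in the pool, 1967 in replicate 1 and 1293 in replicate 2, where a single region lay within 200 bp of both. The replicate 1 summit, 13 bp inside the gene, was over 200 bp from that of replicate 2, at −226 bp. The titin-related ttn-1 had a window region at rank 20846, and unc-45, a myosin chaperone, had none in the pooled list.

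Attachment proteins, which link filaments to the membrane and basement membrane, had no IDR peak in the windows of 14 genes, against 4.51% of all genes, a count too small to set the group apart. A region of rank 5000 or better was in 6 of the 14 windows, against 14.9% of all genes. None of the 6 was among the 5000 strongest of both replicates. Over all genes this held for 6.27%, or 42.1% of the genes with a window region of rank 5000 or better. The window of pat-4, the integrin-linked kinase, had the highest rank of the group, 2102 in the pool, 2664 in replicate 1 and 8096 in replicate 2, with the summit 413 bp upstream. The region of alp-1, an ALP/Enigma protein of dense bodies, lay 1501 bp upstream at rank 2489 in the pool, 1041 in replicate 1 and 25696 in replicate 2. The region of deb-1, vinculin, lay 1557 bp upstream at rank 2674 in the pool, 2116 in replicate 1 and 17175 in replicate 2. The region of pat-3, the beta integrin, lay 751 bp upstream at rank 2931 in the pool, 1301 in replicate 1 and 14019 in replicate 2. These 4 all had a better rank in replicate 1, but their −log10 q was low in both replicates. It ran from 0.426 (pat-4) to 0.804 (alp-1) in replicate 1 and from 0.222 (alp-1) to 0.407 (pat-4) in replicate 2. The region of unc-112, kindlin, went the other way, at rank 4899 in the pool and 1916 in replicate 2, while replicate 1 listed none within 200 bp. Its summit, 660 bp upstream of unc-112, was also in the window of set-5. The region of zyx-1, zyxin, 1386 bp upstream, had rank 4959 in the pool, 9527 in replicate 1 and 6243 in replicate 2.

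The other 8 attachment genes were weaker still. Pooled window regions had rank 10518 at unc-98, an M-line zinc finger protein, 11790 at pat-2, the alpha integrin, 14691 at unc-97, PINCH, 16776 at unc-52, perlecan, and 24431 at atn-1, alpha-actinin. No pooled region fell in the windows of pat-6, parvin, unc-95, a LIM domain protein, or unc-96, an M-line protein. In the window of unc-95, 32.4% of the 32-base words occur elsewhere in the genome, the highest share among the 46, while pat-6 had 1.32% and unc-96 none.

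Calcium handling brought the last IDR peak, at 1 of the 4 genes of excitation, calcium handling and dystrophin, against 4.51% of all genes. The peak of sca-1, at chrIII:10818342-10818725, lay 1684 bp upstream, beside the long noncoding gene linc-129. Its signal was 118 in the pool (rank 895, −log10 q 1.56), 99.8 in replicate 1 (rank 402) and 20.8 in replicate 2 (rank 22376). It was the IDR peak on which the replicates differed most among the 8, strong in one and near the bottom of the list in the other. The remaining 3 genes of the group were at rank 12288 for dys-1, dystrophin, 15721 for egl-19, the L-type calcium channel, and 18014 for unc-68, the ryanodine receptor. Of the 2 transcription factors of muscle fate, hlh-1, the MyoD homolog, had its best window region at rank 6801 and unc-120, related to serum response factor, at 21375, and neither had an IDR peak.

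In the pooled list, the 24 genes without a window region of rank 5000 or better are thus 20 with a weaker one, from rank 5365 to 24431, and the 4 without any, unc-45, pat-6, unc-95 and unc-96. Replicate 2 did list a window region for unc-45 (rank 28796), pat-6 (rank 11937) and unc-95 (rank 25462).

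How well the replicates bore the regions out can be read gene by gene. An IDR peak in the window was among the 924 strongest of both replicates for 3 of 46 genes, act-4, mup-2 and cpn-3 (6.52%), against 602 of all genes (3.01%). At act-4 each replicate summit lay within 200 bp of the IDR summit, but the replicate summits were further than that from each other. With summits within 50 bp in place of 200 bp, cpn-3 alone was left (2.17%), against 2.70% of all genes. Counted over peaks and with the act-4 intron peak, this held for 4 of 8 (50%), against 578 of 924 (62.6%). Of the best window regions of the 22 genes, 8 were among the 5000 strongest of both replicates, 7 of replicate 1 only, 6 of replicate 2 only, and 1, that of zyx-1, of neither. This split was not counted over all genes. With any window region of that strength counted, the share in both replicates was 40.9% of the 22 and 42.1% of all such genes. In replicate 1 alone, 21 of 46 genes (45.7%) had a window region among the 5000 strongest, against 14.5% of all genes. In replicate 2 alone, 15 of 46 (32.6%) had one, against 15.6% of all genes.

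**Figure D4:**
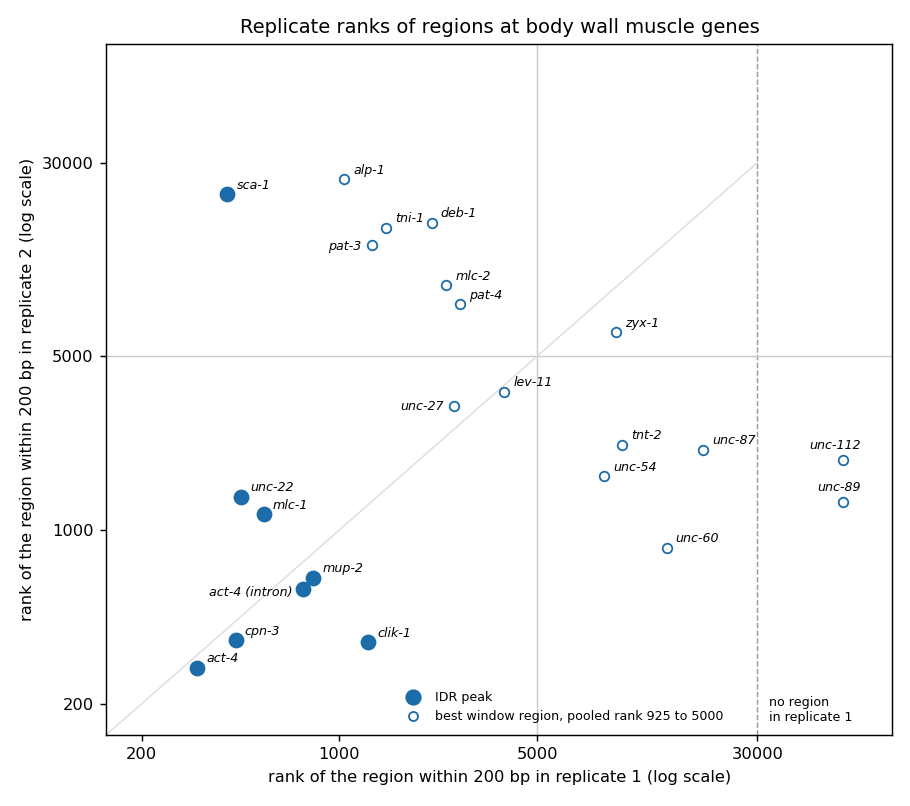
Each circle is an IDR peak at a muscle gene (filled) or the best window region of another gene with pooled rank 5000 or better (open), by rank in replicate 1 and replicate 2 on log scales. Regions such as those of alp-1, deb-1 and tni-1 rank strongly in replicate 1 only, unc-60 and unc-54 in replicate 2 only, and sca-1 is the only filled circle outside the lower left, with ranks 402 and 22376.

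Introns beyond the window held a pooled region of rank 5000 or better in 14 of 46 genes (30.4%), against 920 of all genes (4.61%). Outside the IDR list, the −log10 q of these intron regions ran only from 0.334 (unc-89) to 0.951 (lev-11). The lowest value in the IDR list was 1.43, so such an intron region is not by itself evidence of a SUP-37 site. Muscle genes have long introns, with a median of 1937 bp of intron outside the window per gene, against 525 bp over all genes, so the count has to be read per length. Per megabase of such intron, the 46 genes had 79.2 summits of that strength, 17 in 215 kb, and all genes had 40.5. For IDR summits the order was turned, with 4.66 per megabase in the muscle genes, from the single act-4 peak, and 6.33 over all genes. With replicate 1 alone the muscle genes had 14.0 per megabase, from regions of lev-11 and deb-1 beside that of act-4, and all genes had 6.99. With introns inside the window included as well, the IDR summits numbered 8.84 per megabase in the muscle genes and 6.03 over all genes, so the order rests on 1 to 3 summits.

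The strongest intron region below the IDR list was that of lev-11, 9288 bp from the 5′ end, at rank 1220 in the pool, 846 in replicate 1 and 13822 in replicate 2, where the nearest protein-coding 5′ end is that of Y105E8B.11, 1169 bp away. An intron of hlh-1 had a region 1658 bp from the 5′ end, at rank 1631 in the pool, 2373 in replicate 1 and 3837 in replicate 2, so this gene had a stronger region in its intron than in its window, in the pool and in both replicates. The introns of unc-96, a gene with no window region, held 3. One had rank 1677 in the pool, 1971 in replicate 1 and 6740 in replicate 2, and one had rank 2728 in the pool, 19061 in replicate 1 and 2328 in replicate 2. The third had rank 1956 in the pool and 1493 in replicate 1, with none within 200 bp in replicate 2, and it is nearest to the 5′ end of F13C5.5. An intron of zyx-1 held one at rank 1919 in the pool, 4975 in replicate 1 and 1094 in replicate 2, nearest to the 5′ end of F42G4.5. An intron of deb-1 held one at rank 2061 in the pool and 798 in replicate 1, with none within 200 bp in replicate 2, nearest to the 5′ end of rps-4. Of these, the regions of hlh-1 and zyx-1 were among the 5000 strongest of both replicates, those of lev-11 and deb-1 and 2 of unc-96 of replicate 1 only, and the other of unc-96 of replicate 2 only. For intron regions this split was not counted over all genes.

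The other intron regions had pooled ranks of 3038 at sca-1, 3208 at ttn-1, 3265 at egl-19, 3517 at unc-54, 3761 at unc-22, 4070 at pat-4, 4311 at myo-3 and 4957 at unc-89. The ttn-1 region is 137 bp from the 5′ end of exp-2. The nearest 5′ end to that of pat-4 is mrpl-40, 2678 bp away, and to that of unc-22 it is ZK829.9, 16340 bp away.

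Muscle genes on the X chromosome, 12 of the 46, were compared with other X genes. An IDR peak was in the windows of 3 of the 12 (25%), mlc-1, act-4 and mup-2, against 104 of 2731 X genes (3.81%). On autosomes the count was 4 of 34 (11.8%), against 797 of 17242 (4.62%). A region of rank 5000 or better was in the windows of 7 of the 12 X genes (58.3%), against 380 of all X genes (13.9%), and of 15 of the 34 autosomal genes (44.1%), against 2591 of all autosomal genes (15%). The counts are small, and the difference between the chromosomes was not tested. Noncoding genes lay within 200 bp of 3 of the 8 IDR summits at muscle genes (37.5%), those of mup-2, unc-22 and sca-1, against 269 of all 924 (29.1%).

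Further genes of muscle were looked at beside the 46. Lists of 61 matched genes for further attachment and filament proteins, basement membrane, dystrophin complex, receptors and channels, and muscle fate factors were counted in the same way. An IDR peak was in the windows of 4 (6.56%) and a region of rank 5000 or better in those of 10 (16.4%), against 4.51% and 14.9% of all genes, so the sum of the lists stood near the background. Single lists varied around it, with a region of rank 5000 or better at 4 of 17 attachment and filament genes (23.5%), 5 of 20 receptor, channel and calcium genes (25%), 1 of 8 dystrophin complex genes, and none of 9 basement membrane genes or 7 muscle fate factors. The peak of cap-2, an actin capping protein subunit, lay 230 bp upstream, also in the window of gmps-1, at rank 35 in the pool, 31 in replicate 1 and 62 in replicate 2. The peak of unc-23, a chaperone cofactor, lay 96 bp upstream at rank 363 in the pool, 312 in replicate 1 and 335 in replicate 2. The peak of ccb-1, a calcium channel beta subunit, lay 1159 bp upstream at rank 455 in the pool, 466 in replicate 1 and 504 in replicate 2. These 3 were among the 924 strongest of both replicates. The peak of dyb-1, dystrobrevin, lay 1440 bp upstream at rank 461 in the pool, 325 in replicate 1 and 1345 in replicate 2. In him-4, hemicentin of the basement membrane, an intron held a peak at rank 281 in the pool, 361 in replicate 1 and 297 in replicate 2, with tRNA genes within 200 bp and the nearest 5′ end that of F15G9.5. By list, 2 of 17 attachment and filament genes, 1 of 8 dystrophin complex genes, 1 of 20 receptor, channel and calcium genes, none of 9 basement membrane genes and none of 7 muscle fate factors had an IDR peak in the window. Of 9 genes of pharyngeal muscle, the feeding organ, none had an IDR peak in the window, and 6 (66.7%) had a region of rank 5000 or better. Regions of that strength were thus also found at genes of another muscle.

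**Figure D5:**
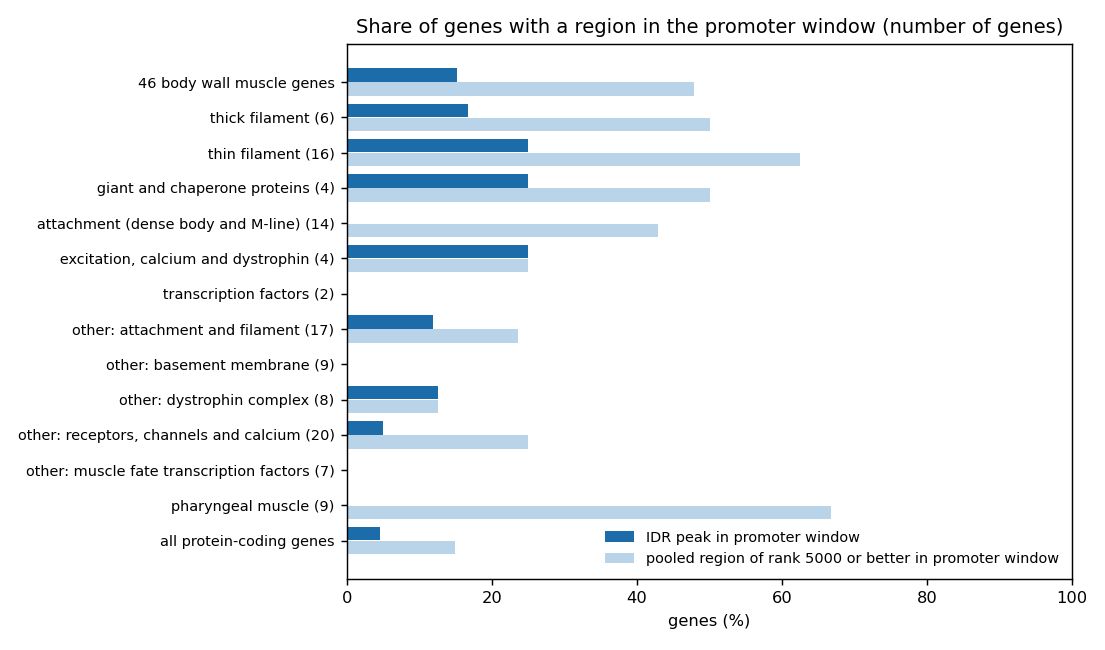
Bars give the percentage of genes in each list with an IDR peak (dark) or a pooled region of rank 5000 or better (light) in the promoter window, with the number of genes in parentheses. The 46 body wall muscle genes stand at 15.2% and 47.8%, thin filament genes, 16 of the 46, hold 4 of the 7 IDR windows, and all protein-coding genes stand at 4.51% and 14.9%.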

How the data were processed

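SUP-37 ChIP-seq of whole L1 larvae was taken up from the authors' region lists, 2 biological replicates of 1 group, with replicate numbers and a fragment range of 200 to 800 bp from the labels. Per the deposited file descriptions, the authors called regions in either replicate and in the pool against 2 control files, and derived the IDR list from these. The sources used here do not give the aligner, the peak caller, their versions or the cutoff of the IDR filter. The deposited signal is the authors' own value, on no stated scale and with medians of 52.8 (pool), 36.0 (replicate 1) and 23.8 (replicate 2). It served only to rank and describe regions within a list. The deposited −log10 of the authors' q-value ran from 1.43 to 3.01 in the IDR list and from 0.22 to 3.01 in the pooled list. Its lowest value was 0.242 in replicate 1 and 0.198 in replicate 2. The control alignments were not used here.

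Coordinates are on ce11, which is WBcel235. Genes came from Ensembl release 115, with the 5′ end of the gene as annotated, and members were found by gene name. A summit was intronic when it lay in an intron of at least 1 transcript, in no exon of the gene and outside the window. A replicate summit within 200 bp of a pooled or IDR summit was taken as the same place. The summits of the 2 replicates were not matched to each other. Words of 6 bases present in at least 60 summit windows were ranked by their ratio to flanking windows, a choice made after seeing the data. Python 3.11.15, numpy 2.4.6 and pandas 2.3.3 were used, and the assignment of summits was tested on simulated data. The name tmd-1 was not matched. Ranks in the pooled and replicate lists and the distance to the 5′ end are given for every gene with an IDR peak, or a window region of rank 5000 or better, and for every gene of the other lists with an IDR peak; intron regions of rank 5000 or better were named after their values were seen. The members, lists and rules were chosen with earlier results of these data known. Alternatives were other windows, 5′ ends, list lengths, summit distances and each replicate alone.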

Additional observations from a re-analysis of the deposited data

How the results depend on the processing

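The 7 genes with an IDR peak in the window became 4 with a window of 500 bp upstream to 100 bp downstream (533 of all genes, 2.67%) and 2 with the 462 strongest IDR peaks (510 of all genes, 2.55%), where window or intron also gave 2. With each replicate alone the window count ranged from 5 to 6, window or intron from 5 to 8, and the count in introns only, 0 in the IDR list, from 0 to 2 (lev-11 and deb-1 in replicate 1, 4.35%, against 0.756% of all genes). The 3 genes shared by both replicates became 1 (cpn-3, 2.17%) with summits within 50 bp, below the 2.70% of all genes, and 6 (13.0%) with the 5000 strongest of each replicate, against 4.19%. The 22 genes became 10 with the 2000 strongest regions (7.80% of all genes), and ranged from 15 to 21 with 1 replicate alone. The intron density of IDR summits ranged from 4.66 to 14.0 per megabase without replicate 1 and without replicate 2, in that order, against 6.43 and 6.99 over all genes, and was 8.84 with the promoter window included. Every other alternative tried left the counts of genes within 1.5 times their value. A narrower window or a shorter list counts fewer genes by construction, and otherwise the cause was not tested. No paired analysis was possible because there was 1 group and no test. Depth is unknown, so a missing region does not show that SUP-37 was absent, and chromatin accessibility and antibody background were not measured here.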
